A study of Mus musculus with 12 samples.

Results

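The mRNA of 10 mouse genes for enzymes that remove acetyl groups from histones, or that set or remove methyl groups on histone H3 lysine 27, was followed through acute, tolerant and recovered responses of macrophages to lipopolysaccharide (LPS, a component of the bacterial outer membrane). The set held the deacetylases Hdac1, Hdac2, Hdac3, Hdac4, Hdac5, Hdac7 and Sirt1, the demethylases Kdm6a and Kdm6b, and Ezh2, which is a methyltransferase and neither a deacetylase nor a demethylase. Genes were taken by the gene name that the array files give, each through the probe with the highest mean signal over the 12 arrays. All 10 genes were well above background on all 12 arrays, and they are 10 of the 20469 genes tested and of the 35397 gene names on the array.

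The cells were bone marrow-derived macrophages, grown for 7 days in L929-conditioned medium, which supplies macrophage growth factor, from the marrow of female C57BL/6 mice aged 6 to 8 weeks. Each of the 4 groups had 3 arrays. Untreated cells received no LPS, and acute cells received LPS for 4 h. Tolerant cells received LPS for 8 h, rested for 16 h and received LPS again for 4 h. Recovered cells were treated in the same way with a rest of 88 h by the sample descriptions, whereas the treatment protocol gives 2 to 4 days. The strain was the same in all groups, and neither untreated cells of the longer culture time nor cells rested without the second LPS were analysed here. The 3 arrays of a group came from independent experiments by the series design. It is not stated whether each used separate animals, so p-values measure the spread between these arrays. Since the arrays read RNA of whole cultures at equal input, fewer cells that express a gene and less of its RNA per cell cannot be told apart.

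Histone deacetylases are grouped by sequence. Class I enzymes (Hdac1, Hdac2 and Hdac3) work in nuclear corepressor complexes, Hdac1 and Hdac2 among others in the Sin3, NuRD and CoREST complexes. Class IIa enzymes (Hdac4, Hdac5 and Hdac7) shuttle between nucleus and cytoplasm, bind Mef2 transcription factors and have little deacetylase activity of their own. Sirt1, of class III, uses NAD as a cosubstrate and also deacetylates transcription factors, among them the NF-kappa B subunit RelA. Ezh2 is the catalytic subunit of Polycomb repressive complex 2, which methylates histone H3 lysine 27, and Kdm6a (Utx) and Kdm6b (Jmjd3) remove that mark. Kdm6b is known as a gene that LPS induces in macrophages.

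Sirt1 had the largest difference of the 10 genes and Hdac5 the smallest adjusted p-values. In acute cells Sirt1 mRNA was 4.92-fold and in recovered cells 3.96-fold that of untreated cells, whereas in tolerant cells its level lay among the untreated arrays. Hdac5 had its highest level in untreated cells and fell in every LPS group, least in tolerant cells. Hdac1 and Kdm6b rose in acute and recovered cells, Hdac4 fell in acute cells, Hdac7 rose in recovered cells, and Kdm6a fell in recovered cells. No call was made for Hdac2, Hdac3 or Ezh2 in any of the 6 comparisons at an adjusted p under 0.05, except for Hdac3 in recovered cells once replicate number or slide was fitted as a block.

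Values below are log2 signals scaled to the 75th percentile of each array. They can be compared between arrays for 1 gene but not between genes, since probes differ in brightness. Differences are log2 differences ± standard error from limma (n = 3 arrays per group), with Benjamini-Hochberg adjustment over the 20469 genes. A call means an adjusted p under 0.05.

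Against untreated cells, 5 of the 10 genes were called in acute cells (29.3% of all genes tested were called), 1 in tolerant cells (19.9% of all) and 6 in recovered cells (35.4% of all). Tolerant and acute cells differed in 4 of the 10 genes (22.7% of all), recovered and tolerant cells in 2 (20.6% of all), of which 1 was higher and 1 lower (11.0% and 9.59% of all), and recovered and acute cells in 1 (2.04% of all), which was higher (1.46% of all were higher and 0.581% lower). An F-test over the 4 groups called 7 of the 10 genes, all but Hdac2, Hdac3 and Ezh2 (40.1% of all). With the replicate number as a block, 7 of the 10 genes were called in acute (43.5% of all), 4 in tolerant (37.5%) and 8 in recovered against untreated cells (52.6%). The block gave 5 called genes for tolerant against acute (44.5%) and 4 for recovered against tolerant cells (45.1%), and the count for recovered against acute cells stayed at 1. Without the block, the share of the 10 genes called was below that of all genes in tolerant against untreated cells and close to it in recovered against tolerant cells. Groups did not overlap in 6 genes for acute against untreated cells (38.7% of all genes), in 2 for tolerant against untreated (34.5%) and in 7 for recovered against untreated (47.7%). Between LPS groups they did not overlap in 4 genes for tolerant against acute (38.5%), in 3 for recovered against tolerant (44.0%) and in 3 for recovered against acute (19.7%). The median size of the difference was 0.77 for the 10 genes and 0.36 for all genes in acute against untreated cells, and 0.80 and 0.44 in recovered against untreated cells. In tolerant against untreated cells the 10 genes had a median size of 0.22, below the 0.31 of all genes.

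**Figure D1:**
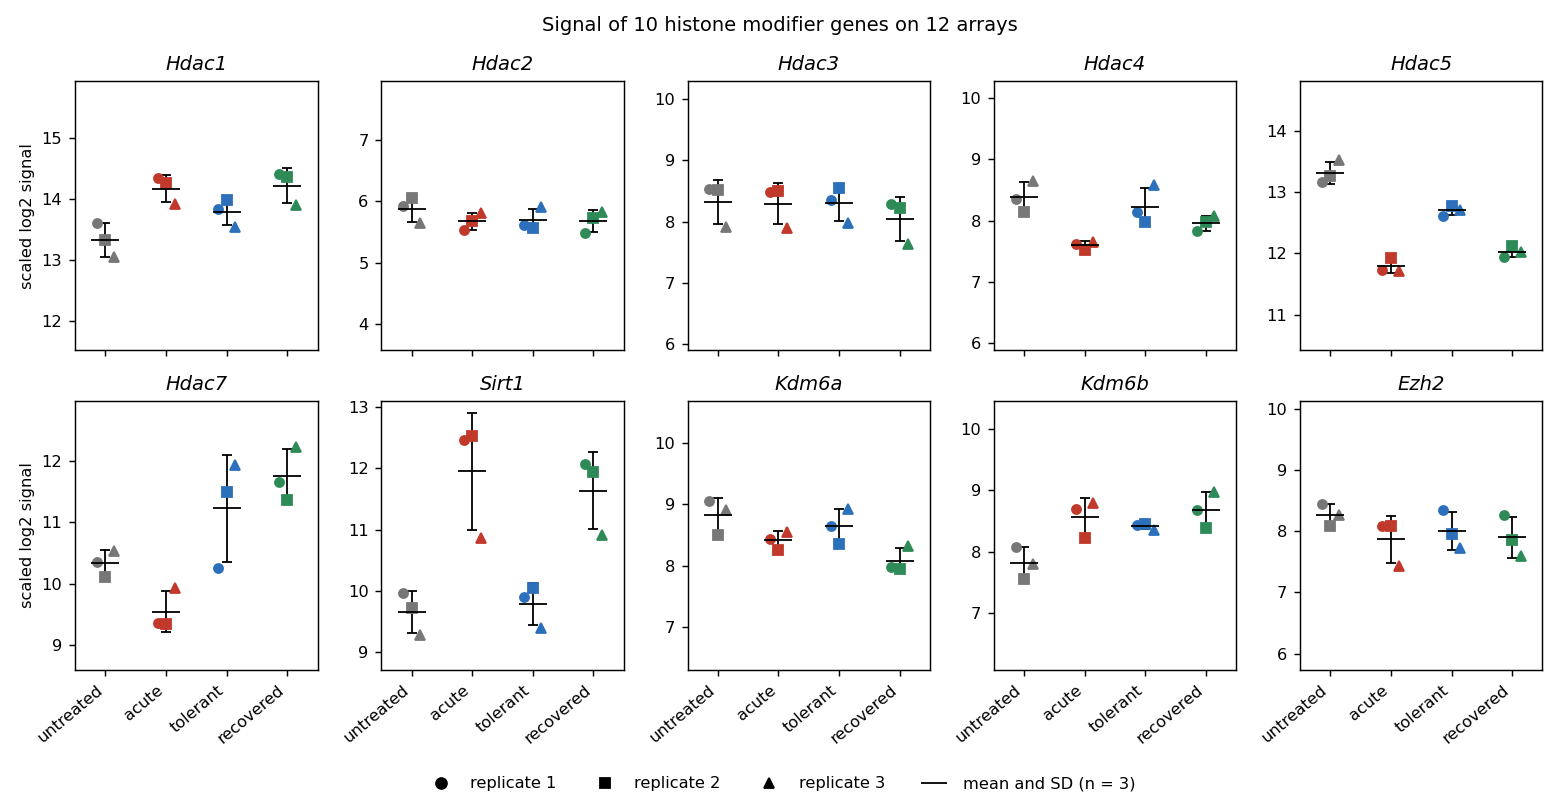
Scaled log2 signal (vertical axes, of equal span but different origin) of each of the 10 genes on the 12 arrays. Points are single arrays with the replicate number as marker, and the horizontal line and bar give the mean and SD of the 3 arrays of a group. Sirt1 lies between 9.28 and 10.05 on the untreated and tolerant arrays and between 10.85 and 12.53 on the acute and recovered arrays, and Hdac5 falls from 13.17 or more on untreated arrays to 11.92 or less on acute arrays.

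On each array 47.8% to 55.0% of spots were well above background, and no spot was saturated. All 6 macrophage markers were above background on every array. Of the other lists, 3 of 5 neutrophil markers measured, and at most 1 gene of each of the fibroblast, lymphocyte, mast cell, dendritic cell and erythroid lists, were above background on all arrays. Col1a1, Pdgfra and Lum of 6 fibroblast markers, Ms4a1 of 5 lymphocyte markers, Cpa3, Mcpt4 and Fcer1a of 4 mast cell markers, and S100a9 of the neutrophil markers were above background on no array. Some of these lists moved with the groups. The median difference of the 3 neutrophil markers tested against untreated cells was 0.79 in acute and 2.25 in tolerant cells, and between those values in recovered cells, with summed signals of 4344 to 6585 in untreated and 4503 to 7627 in tolerant cells. The summed dendritic cell list ran from 38.4 to 74.7 in untreated, 955 to 1953 in acute, 628 to 845 in tolerant and 1261 to 2086 in recovered cells, led by Zbtb46 (5.31 ± 0.32 in acute cells). Only 2 of the 4 genes of that list were tested. Against untreated cells 1 was called higher in acute, 2 in tolerant and 1 in recovered cells (14.3%, 11.3% and 18.5% of all genes). The part of these lists in the values of the 10 genes was not tested. Replicate 3 of every group lay on a slide of its own that was scanned on another day, and several of the 10 genes read lower or higher there in every group. On that slide the mean deviation from the group means was -0.65 for Sirt1, -0.38 for Hdac3, -0.27 for Hdac1 and -0.26 for Ezh2, while it was 0.45 for Hdac7. Differences within a slide are therefore given beside most results of the 10 genes. Replicate 1 of the untreated, acute and tolerant groups shared the first slide, and recovered replicate 1 lay on the second slide with replicate 2 of all groups.

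Windows from the RefSeq promoter table (GRCm38.p6) were searched for 7 of the 10 genes. Hdac1, Hdac3 and Kdm6b were not among them, and their promoters are not described. Of the 7 genes, 4 whose mRNA changed are shown, Sirt1 among those that rose and Hdac5, Hdac4 and Kdm6a among those that fell. The 250 bases before the annotated start are given for each of the 4. They are written 5′ to 3′ on the strand of the gene, and capitals mark the E-box CACGTG and the GC box GGGCGG, also where it reads CCGCCC on the other strand. The windows are chr10:63339036-63339285 (minus strand) for Sirt1, chr11:102230173-102230422 (minus strand) for Hdac5, chr1:92180342-92180591 (minus strand) for Hdac4 and chrX:18162325-18162574 (plus strand) for Kdm6a.
Sirt1: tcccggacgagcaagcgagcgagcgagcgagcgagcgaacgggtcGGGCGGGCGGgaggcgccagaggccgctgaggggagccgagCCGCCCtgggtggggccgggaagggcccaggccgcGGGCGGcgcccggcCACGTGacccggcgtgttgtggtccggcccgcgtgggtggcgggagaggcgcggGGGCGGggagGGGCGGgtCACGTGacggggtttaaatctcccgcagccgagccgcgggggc
Hdac5: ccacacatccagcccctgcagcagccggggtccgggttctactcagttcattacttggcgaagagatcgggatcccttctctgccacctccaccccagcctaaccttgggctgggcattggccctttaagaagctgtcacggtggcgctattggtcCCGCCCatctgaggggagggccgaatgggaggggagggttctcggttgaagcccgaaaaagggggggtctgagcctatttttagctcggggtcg
Hdac4: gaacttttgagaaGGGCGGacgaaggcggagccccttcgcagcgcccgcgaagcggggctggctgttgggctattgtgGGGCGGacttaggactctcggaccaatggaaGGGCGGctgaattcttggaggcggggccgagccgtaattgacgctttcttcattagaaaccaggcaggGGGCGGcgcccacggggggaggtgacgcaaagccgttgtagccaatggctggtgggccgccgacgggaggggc
Kdm6a: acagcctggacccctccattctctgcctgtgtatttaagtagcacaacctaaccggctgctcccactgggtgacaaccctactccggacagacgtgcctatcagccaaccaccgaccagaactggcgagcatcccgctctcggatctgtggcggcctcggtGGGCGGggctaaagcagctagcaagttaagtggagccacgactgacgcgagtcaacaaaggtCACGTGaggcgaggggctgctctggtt
The Sirt1 window held 2 E-boxes, which begin 115 and 43 bases before the start, and 6 GC boxes, of which 2 overlap, and 79.2% of its bases were G or C. The Hdac5 window held 1 GC box and no E-box, the Hdac4 window 4 GC boxes and no E-box, and the Kdm6a window 1 of each, with its E-box 27 bases before the start. Hdac7, which also rose in recovered cells, had 4 windows that are not shown. None of them held an E-box, and 1 held a GC box. An E-box was found in 6.02% and a GC box in 32.7% of the 32851 promoter windows of that length, on either strand. The cyclic AMP response element TGACGTCA (in 1.55% of windows), the AP-1 site TGANTCA (6.75%), the core of the interferon-stimulated response element (2.98%) and the kappa B consensus (7.25%) were searched in the same way, and these letters were not in the windows of the 7 genes. These matches are a description of the letters only, and binding was not measured.

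Among class I enzymes only Hdac1 was called in any of the 6 comparisons by limma without a block. Its probe (chr4:129193374-129193433 on mm9, minus strand) read 13.61, 13.33 and 13.04 on the untreated arrays of replicates 1, 2 and 3, and 14.33, 14.25 and 13.92 on the acute arrays. It read 13.84, 13.97 and 13.54 on the tolerant and 14.40, 14.35 and 13.89 on the recovered arrays. All acute and recovered arrays were above all untreated arrays, whereas tolerant replicate 3 was below untreated replicate 1. Hdac1 rose by 0.84 ± 0.21 in acute cells (1.79-fold, adjusted p = 0.00929) and by 0.89 ± 0.21 in recovered cells (1.85-fold, adjusted p = 0.00585), with differences of 0.72 to 0.93 and 0.85 to 1.05 within slides. Tolerant cells were 0.46 ± 0.21 above untreated cells (adjusted p = 0.156). With the replicate number as a block the same difference passed (adjusted p = 0.00701), and it was 0.22 to 0.65 within slides. Tolerant cells differed from acute cells by -0.38 ± 0.21 (adjusted p = 0.211, and 0.0143 with the replicate block), and recovered cells 0.43 ± 0.21 above tolerant cells (adjusted p = 0.157, and 0.00891 with the replicate block). The other 2 Hdac1 probes were called lower in tolerant than in acute cells, by -0.57 (adjusted p = 0.00658) and -0.45 (adjusted p = 0.0256). For recovered against tolerant cells they gave 0.48 (adjusted p = 0.0183) and 0.35 (adjusted p = 0.0739).

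Hdac2, the close relative of Hdac1 with which it forms dimers, had a probe (chr10:36713455-36713589 on mm9, plus strand) whose 60 bases lie over 135 bases of the genome, spotted 10 times per array. Its level ran from 5.48 on recovered replicate 1 to 6.06 on untreated replicate 2, and all groups overlapped. With group means of 5.67 to 5.88 it was the dimmest probe of the 10 genes. Its 6 differences lay between -0.20 and 0.02, and the interval of the acute difference was -0.57 to 0.16. Hdac3 (chr18:38096655-38096714 on mm9, minus strand) read 8.54, 8.51 and 7.90 on untreated, 8.48, 8.51 and 7.90 on acute, 8.36, 8.56 and 7.98 on tolerant and 8.29, 8.22 and 7.64 on recovered arrays. Replicate 3 was the lowest array of every group, by more than any group mean differed from another. Recovered cells differed from untreated cells by -0.27 ± 0.26 (adjusted p = 0.459), which passed with the replicate block (adjusted p = 0.0376), with differences of -0.27 to -0.25 within slides. Against tolerant cells they differed by -0.25 ± 0.26 (adjusted p = 0.512), and with slide as a block by -0.27 (adjusted p = 0.0425).

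Of the class IIa enzymes, Hdac4 and Hdac5 had their means in the same order over the groups, and Hdac7 had another. Hdac5 (chr11:102057076-102057135 on mm9, minus strand) read 13.17, 13.26 and 13.52 on the untreated arrays and 11.73, 11.92 and 11.71 on the acute arrays. It read 12.62, 12.78 and 12.71 on the tolerant and 11.93, 12.11 and 12.02 on the recovered arrays. All 4 groups were apart from each other, in the order untreated, tolerant, recovered and acute, although recovered and acute cells differed by only 0.24 ± 0.14 (adjusted p = 0.494). Hdac5 fell by 1.53 ± 0.14 in acute cells (adjusted p = 8.12e-06), which is a 2.89-fold lower level, and by 1.29 ± 0.14 in recovered cells (2.45-fold lower, adjusted p = 2.82e-05). In tolerant cells it fell by 0.62 ± 0.14 (1.53-fold lower, adjusted p = 0.00843), and it was the only gene of the 10 called there without the block. Tolerant cells were above acute cells by 0.92 ± 0.14 (adjusted p = 0.000974), and recovered cells were below tolerant cells (-0.68 ± 0.14, adjusted p = 0.00638). These 5 calls held in all 21 alternative settings, and within slides the acute difference was -1.81 to -1.35 and the tolerant difference -0.81 to -0.48.

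Hdac4 (chr1:93829554-93829613 on mm9, minus strand) read 8.35, 8.14 and 8.65 on untreated, 7.63, 7.52 and 7.64 on acute, 8.14, 7.97 and 8.58 on tolerant and 7.83, 7.97 and 8.08 on recovered arrays. The acute arrays were below those of every other group, and tolerant arrays overlapped with untreated arrays. Hdac4 fell by 0.79 ± 0.18 in acute cells (1.72-fold lower, adjusted p = 0.00697). It was 0.63 ± 0.18 higher in tolerant than in acute cells (adjusted p = 0.0296), a call that was lost without a filter on dim probes (adjusted p = 0.0550), without the arrays of the second scan day (0.0553) and on leaving out any acute array, tolerant replicate 1 or tolerant replicate 3, with an adjusted p of up to 0.102. Recovered cells differed from untreated cells by -0.42 ± 0.18 (adjusted p = 0.0975), which passed with the replicate block (adjusted p = 0.0178).

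Hdac7 (chr15:97623208-97623267 on mm9, minus strand) read 10.35, 10.11 and 10.54 on the untreated and 9.35, 9.34 and 9.92 on the acute arrays. It read 10.26, 11.49 and 11.94 on the tolerant and 11.66, 11.36 and 12.24 on the recovered arrays. The recovered arrays were above all untreated and acute arrays, the acute arrays were below all others, and tolerant replicate 1 lay among the untreated arrays while tolerant replicates 2 and 3 lay among the recovered arrays. Recovered cells were 1.42 ± 0.38 above untreated cells (2.68-fold, adjusted p = 0.0132, and 0.0559 without recovered replicate 3). They were 2.21 ± 0.38 above acute cells (4.64-fold, adjusted p = 0.0234), the only gene of the 10 called in that comparison. That call was lost without a filter on dim probes (adjusted p = 0.0569) and on leaving out acute replicate 1 or 2 or any recovered array, with an adjusted p of up to 0.107, while the difference stayed between 1.97 and 2.41. Hdac7 was also higher in tolerant than in acute cells (1.69 ± 0.38, 3.23-fold, adjusted p = 0.00900). Against untreated cells, acute cells differed by -0.79 ± 0.38 (adjusted p = 0.156, and 0.0447 with the replicate block) and tolerant cells by 0.90 ± 0.38 (adjusted p = 0.133, and 0.0311 with the replicate block). Without tolerant replicate 1 the tolerant difference was 1.38 (adjusted p = 0.00870), and within slides it ran from -0.09 to 1.40. Recovered cells were 1.41 to 1.70 above untreated cells and 2.17 to 2.31 above acute cells within slides.

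**Figure D2:**
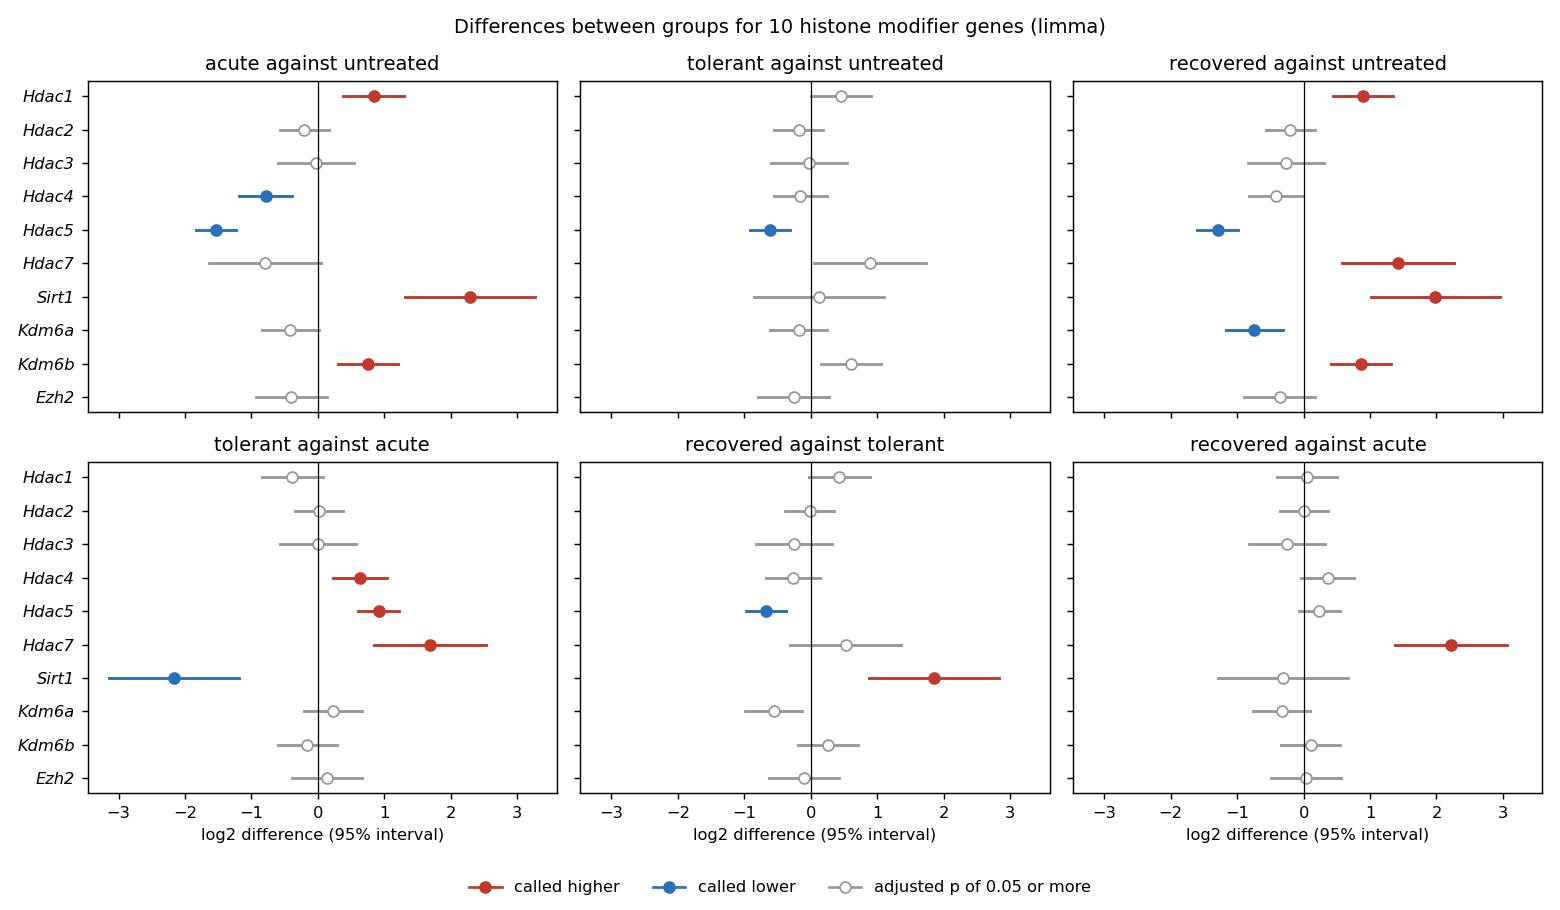
Log2 differences (points) with 95% intervals (bars) from limma for the 10 genes in the 6 comparisons, filled where the adjusted p was under 0.05. Hdac5 differs in 5 of the 6 comparisons, Sirt1 is higher in acute and recovered cells and lower in tolerant than in acute cells, and Hdac7 is the only filled point for recovered against acute cells.

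Sirt1 (chr10:62781827-62781886 on mm9, minus strand) read 9.96, 9.72 and 9.28 on the untreated and 12.46, 12.53 and 10.85 on the acute arrays. It read 9.90, 10.05 and 9.40 on the tolerant and 12.07, 11.93 and 10.91 on the recovered arrays. The groups fell into a low pair, untreated and tolerant, and a high pair, acute and recovered, that did not overlap, and within each pair the arrays overlapped. Sirt1 rose by 2.30 ± 0.44 in acute cells (adjusted p = 0.00222) and by 1.98 ± 0.44 in recovered cells (adjusted p = 0.00471). Tolerant cells were 4.49-fold below acute cells (-2.17 ± 0.44, adjusted p = 0.00537), and recovered cells were 3.62-fold above tolerant cells (1.85 ± 0.44, adjusted p = 0.0141, and 0.0591 without recovered replicate 1). Tolerant and untreated cells differed by 0.13 ± 0.44 with an interval of -0.85 to 1.11 (adjusted p = 0.890), and recovered and acute cells by -0.31 with an interval of -1.29 to 0.66 (adjusted p = 0.807).

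The size of the Sirt1 rise differed between slides. Within the slide of replicate 3 the acute difference was 1.57, and within the other slides it reached 2.81. The recovered difference was 1.63 to 2.28 within slides, and that of tolerant against acute cells -2.56 to -1.46. Replicate 3 was the lowest array of every group for this gene, as it was for Hdac1 and Hdac3, with a deviation of -1.10 from the mean in acute cells and of -0.37 in untreated cells.

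**Figure D3:**
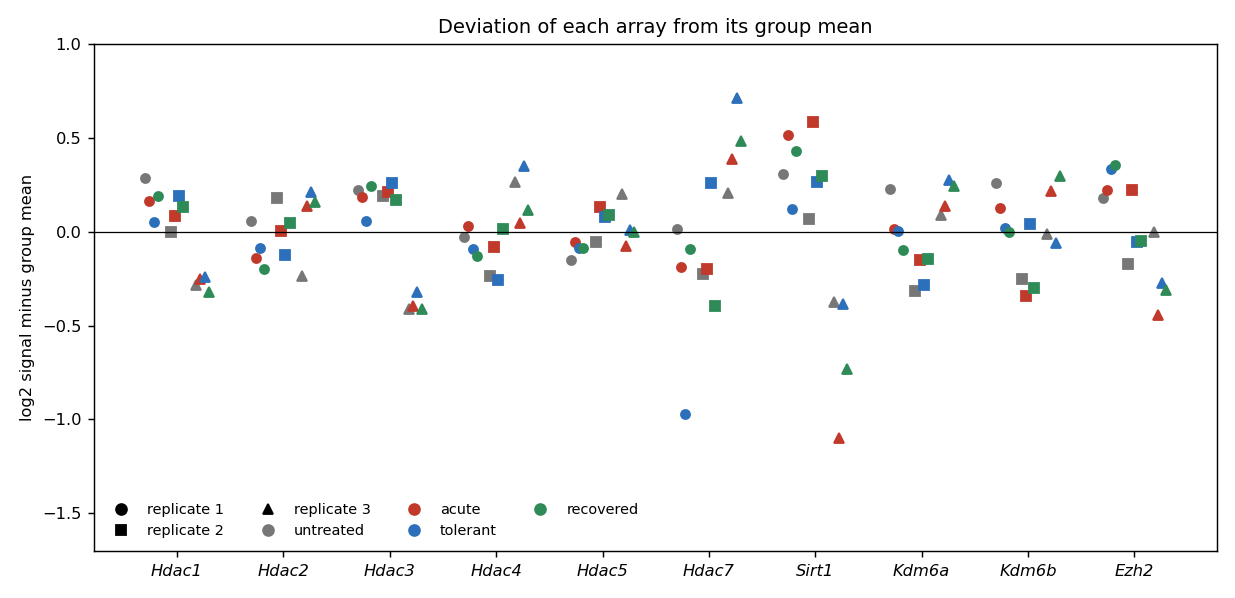
Deviation of each array from the mean of its group (vertical axis, log2) for the 10 genes, with marker shape for the replicate number and colour for the group. Replicate 3 lies below the group mean in all 4 groups for Hdac1, Hdac3 and Sirt1 and above it in all 4 groups for Hdac4, Hdac7 and Kdm6a.

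The 2 demethylases of histone H3 lysine 27 moved in opposite directions in recovered cells. Kdm6b (chr11:69212177-69212236 on mm9, minus strand) read 8.07, 7.56 and 7.80 on untreated, 8.70, 8.23 and 8.79 on acute, 8.44, 8.46 and 8.36 on tolerant and 8.68, 8.38 and 8.98 on recovered arrays. Every array of every LPS group was above all untreated arrays, and the 3 LPS groups overlapped. Kdm6b rose by 0.76 ± 0.20 in acute cells (1.69-fold, adjusted p = 0.0149) and by 0.87 ± 0.20 in recovered cells (1.82-fold, adjusted p = 0.00637). Without the arrays of the second scan day the adjusted p was 0.0847 for acute and 0.0533 for recovered cells, and the acute call was also lost without untreated replicate 2 (0.0651), acute replicate 1 (0.0524) or acute replicate 3 (0.0563). Tolerant cells were 0.61 ± 0.20 above untreated cells (adjusted p = 0.0599), and this difference passed with the replicate block (adjusted p = 0.0121). Within slides the rise was 0.63 to 0.99 in acute, 0.36 to 0.90 in tolerant and 0.97 to 1.17 in recovered cells. The comparison of tolerant with acute cells gave -0.16 with an interval of -0.60 to 0.29 (adjusted p = 0.623).

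Kdm6a (chrX:17852163-17852222 on mm9, plus strand), an X-linked gene, read 9.05, 8.51 and 8.91 on untreated, 8.43, 8.26 and 8.55 on acute, 8.65, 8.36 and 8.92 on tolerant and 7.99, 7.94 and 8.33 on recovered arrays. The recovered arrays were below all untreated and tolerant arrays, whereas the acute arrays overlapped with both. Kdm6a fell by 0.74 ± 0.20 in recovered cells (1.67-fold lower, adjusted p = 0.0124, and 0.0502 without untreated replicate 1), with differences of -0.59 to -0.55 within slides. Recovered cells differed from tolerant cells by -0.56 ± 0.20 (adjusted p = 0.0666, and 0.00556 with the replicate block). Acute cells differed from untreated cells by -0.41 ± 0.20 (adjusted p = 0.153, and 0.0196 with the replicate block).

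Ezh2 (chr6:47480307-47480366 on mm9, minus strand) read 8.44, 8.09 and 8.26 on untreated, 8.09, 8.09 and 7.42 on acute, 8.34, 7.95 and 7.73 on tolerant and 8.26, 7.85 and 7.60 on recovered arrays. All groups overlapped, and the 6 differences lay between -0.40 and 0.14, with an interval of -0.93 to 0.13 for acute against untreated cells (adjusted p = 0.270). Within slides the acute difference ran from -0.84 to 0.00024. Ezh2 is also known to follow cell proliferation. Of 21 proliferation genes tested, 11 were lower and 3 higher in acute cells (15.0% and 14.3% of all genes), 13 lower and 0 higher in tolerant cells (8.63% and 11.3% of all) and 8 lower and 3 higher in recovered cells (16.9% and 18.5% of all), by limma against untreated cells (at an unadjusted p under 0.05, 16 were lower and 1 higher in tolerant cells). Their median difference was -0.68, -1.08 and -0.35 in that order. The cell cycle activator E2f2 was lower in all LPS groups, with log2 differences of -3.39, -2.73 and -3.92 in acute, tolerant and recovered cells. The genes of the list that rose in acute cells were Mki67 (1.32 ± 0.19, adjusted p = 0.000350), a marker of cycling cells, Pcna (1.10 ± 0.25, adjusted p = 0.00541) and Tyms (1.09 ± 0.22, adjusted p = 0.00307), the thymidylate synthase, and the same genes rose in recovered cells, by 1.08, 0.94 and 1.18 in that order. The summed signal of the proliferation list ran from 59672 to 73794 in untreated, 70604 to 109948 in acute, 54217 to 62883 in tolerant and 68947 to 97961 in recovered cells, and its part in the values of the 10 genes was not tested.

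None of the remaining deacetylases was called higher against untreated cells without a block. Of 10 tested (of 11 listed), 5 were lower and 0 higher in acute cells (15.0% and 14.3% of all genes), 2 lower and 0 higher in tolerant cells (8.63% and 11.3% of all) and 5 lower and 0 higher in recovered cells (16.9% and 18.5% of all) by limma, and at an unadjusted p under 0.05 these counts were 6 and 0, 3 and 1, and 5 and 0. With the replicate block 4 were lower and 1 higher in tolerant cells (37.5% of all genes were called with it). Sirt3, Sirt4 and Sirt5, which reside in mitochondria, were among the genes that fell in acute and recovered cells, where Sirt1 rose. The differences of Sirt3 were -1.41 ± 0.16 in acute (adjusted p = 5.92e-05), -0.60 ± 0.16 in tolerant (adjusted p = 0.0242) and -1.54 ± 0.16 in recovered cells (adjusted p = 2.77e-05), and the tolerant call was lost in 4 of the 21 alternatives. Between tolerant and acute cells 4 were higher and 1 lower (2462 and 2179 of all 20469 genes, 22.7% either way). Sirt3 (0.81, adjusted p = 0.00509), Sirt4 (0.72, adjusted p = 0.00901), Sirt7 (0.74, adjusted p = 0.00366) and Sirt5 (0.84 ± 0.25, adjusted p = 0.0355) were higher in tolerant cells, and Sirt2 was lower (-0.63 ± 0.17, adjusted p = 0.0193). The calls of Sirt5 and Sirt2 were lost in some alternatives, with an adjusted p of up to 0.108 for Sirt5 and 0.0787 for Sirt2.

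Among 25 subunits of the corepressor complexes in which class I enzymes work, 4 were higher and 4 lower in acute cells (14.3% and 15.0% of all genes), 1 higher and 5 lower in tolerant cells (11.3% and 8.63% of all) and 3 higher and 6 lower in recovered cells (18.5% and 16.9% of all). With the replicate block these counts were 5 and 8, 5 and 7, and 5 and 9, where 43.5%, 37.5% and 52.6% of all genes were called. Sap30, a subunit of the Sin3 complex that holds Hdac1 and Hdac2, had the largest rise of the list in each LPS group. It rose by 3.36 ± 0.23 in acute (10.2-fold, adjusted p = 8.21e-07), 1.73 ± 0.23 in tolerant (3.31-fold, adjusted p = 0.000305) and 3.24 ± 0.23 in recovered cells (9.46-fold, adjusted p = 1.04e-06), and was lower in tolerant than in acute cells (-1.63 ± 0.23, adjusted p = 0.000608). Another Sin3 subunit, Sap18, fell most in tolerant cells (-1.11 ± 0.17, adjusted p = 0.000888). The scaffold Sin3a was higher in tolerant than in acute cells (0.91 ± 0.19, adjusted p = 0.00630) and lower in recovered than in tolerant cells (-0.90 ± 0.19, adjusted p = 0.00800). Of the CoREST subunits, Rcor3 fell in acute cells (-0.98 ± 0.24, adjusted p = 0.00923, and up to 0.0621 over the alternatives), and Rcor2 was higher in recovered than in tolerant cells (1.63 ± 0.35, adjusted p = 0.00804).

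The list of 24 other Polycomb proteins had called genes in both directions, with 7 higher and 9 lower in acute (14.3% and 15.0% of all genes), 3 higher and 4 lower in tolerant (11.3% and 8.63% of all) and 6 higher and 7 lower in recovered cells (18.5% and 16.9% of all). With the replicate block 5 were higher and 7 lower in tolerant cells (37.5% of all genes were called). Pcgf5, a subunit of a variant Polycomb repressive complex 1, rose by 3.32 ± 0.19 in acute (adjusted p = 2.06e-07), 1.44 ± 0.19 in tolerant (2.71-fold, adjusted p = 0.000281) and 3.38 ± 0.19 in recovered cells (10.4-fold, adjusted p = 1.70e-07). Tolerant cells were below acute cells for this gene (-1.88 ± 0.19, adjusted p = 9.19e-05), and recovered cells were above tolerant cells (1.94 ± 0.19, adjusted p = 0.000124). Cbx8, a chromodomain subunit that binds the methylated lysine, fell by at least 4.62-fold in acute and at least 3.78-fold in recovered cells, where none of the 3 arrays had its probe well above background (adjusted p = 6.83e-05 and 8.82e-05). These bounds set the untreated mean against the dimmest signal well above background, or the probe's own where that was higher, on each array. In tolerant cells the Cbx8 probe was well above background on 1 of 3 arrays, and its call as lower than in untreated cells (adjusted p = 0.00849) was lost without the second scan day (adjusted p = 0.0583). Pcgf2, a subunit of canonical complexes, was the only gene of the list called between recovered and acute cells (1.17 ± 0.26, adjusted p = 0.0481). Its probe was well above background on 1 of 3 acute arrays, and that call was lost in 15 of the 21 alternatives.

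Among 18 other demethylases tested (of 19 listed), 3 were higher and 4 lower in acute (14.3% and 15.0% of all genes), 3 higher and 1 lower in tolerant (11.3% and 8.63% of all) and 0 higher and 4 lower in recovered cells (18.5% and 16.9% of all) by limma (5 higher and 4 lower in recovered cells at an unadjusted p under 0.05). Between tolerant and acute cells 5 were higher and 0 lower (2462 and 2179 of all 20469 genes, 22.7% either way), and 5 and 2 at an unadjusted p under 0.05. With the replicate block 6 were higher and 6 lower in acute, 10 higher and 2 lower in tolerant and 6 higher and 7 lower in recovered against untreated cells, and 8 higher and 2 lower in tolerant against acute cells, where 43.5%, 37.5%, 52.6% and 44.5% of all genes were called. Kdm2b, which demethylates histone H3 lysine 36 and recruits a variant Polycomb complex to CpG islands, had the largest fall in acute (-1.79 ± 0.18, adjusted p = 1.76e-05) and in tolerant cells (-1.04 ± 0.18, adjusted p = 0.00169), and its difference in recovered cells was -1.35. The largest rise in acute cells was that of Kdm3b (0.78 ± 0.19, adjusted p = 0.00924) and in tolerant cells that of Kdm4a (0.94 ± 0.28, adjusted p = 0.0365), which was lost in 8 of the 21 alternatives. Kdm5b, which acts on histone H3 lysine 4, was 2.28 ± 0.22 higher in tolerant than in acute cells (4.84-fold, adjusted p = 8.58e-05) on its brightest probe, and the mean of its probes gave an adjusted p of 0.215. On that probe it was lower in recovered than in untreated (-1.35 ± 0.22, adjusted p = 0.000589) and tolerant cells (-2.06 ± 0.22, adjusted p = 0.000202). The mean of its probes gave an adjusted p of 0.579 and 0.0853 for these differences.

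Acetyltransferases add the group that deacetylases remove. Among 13 of them, 4 were higher and 2 lower in acute (14.3% and 15.0% of all genes), 1 higher and 2 lower in tolerant (11.3% and 8.63% of all) and 3 higher and 5 lower in recovered cells (18.5% and 16.9% of all). The related enzymes Kat6a and Kat6b moved in opposite directions in acute cells, with Kat6a higher by 1.14 ± 0.17 (adjusted p = 0.000440) and Kat6b lower (-1.97 ± 0.29, adjusted p = 0.000381), and in recovered cells, where they differed by 0.84 and -1.55. Ncoa3, a nuclear receptor coactivator, fell in tolerant (-1.22 ± 0.17, adjusted p = 0.000480) and recovered cells (-0.79 ± 0.17) and was also below acute cells in tolerant cells (-1.09 ± 0.17, adjusted p = 0.00124). Hat1, which acetylates newly made histone H4, rose in all LPS groups, by 0.88 ± 0.13 in acute (adjusted p = 0.000428), 0.69 ± 0.13 in tolerant (adjusted p = 0.00363) and 0.89 ± 0.13 in recovered cells (adjusted p = 0.000319).

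Among 22 other histone methyltransferases, 4 were higher and 5 lower in acute (14.3% and 15.0% of all genes), 4 higher and 3 lower in tolerant (11.3% and 8.63% of all) and 3 higher and 7 lower in recovered cells (18.5% and 16.9% of all). With the replicate block 6 were higher and 8 lower in acute and 6 higher and 6 lower in tolerant cells (43.5% and 37.5% of all genes were called). Setdb2, an enzyme of histone H3 lysine 9 that is known as interferon induced in macrophages, rose by 4.45 ± 0.25 in acute (21.9-fold, adjusted p = 1.84e-07), 2.04 ± 0.25 in tolerant and 4.33 ± 0.25 in recovered cells (20.2-fold, adjusted p = 2.05e-07). Tolerant cells were below acute cells for Setdb2 (-2.41 ± 0.25, adjusted p = 0.000107). Kmt5c, which methylates histone H4 lysine 20, fell by 2.10 ± 0.16 in acute (adjusted p = 1.67e-06) and fell by 1.64 ± 0.16 in recovered cells (adjusted p = 1.15e-05), and its difference in tolerant cells was -0.65. Of the methylases of lysine 9, Ehmt1 (G9a-like) rose in all LPS groups, by 1.61 ± 0.45 in acute (adjusted p = 0.0192), 2.68 ± 0.45 in tolerant (adjusted p = 0.00159) and 3.55 ± 0.45 in recovered cells (adjusted p = 0.000102), and the tolerant call was lost in the authors' value table (adjusted p = 0.104). Suv39h2 rose by 1.15, 1.70 and 2.42 in the same order and was higher in recovered than in acute cells (1.26 ± 0.28, adjusted p = 0.0481), which was lost in 12 of the 21 alternatives. Setd7, a methylase of histone H3 lysine 4, had the largest fall in tolerant cells (-0.92 ± 0.18, adjusted p = 0.00348), and it also fell in acute (-0.88) and recovered cells (-1.31).

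**Figure D4:**
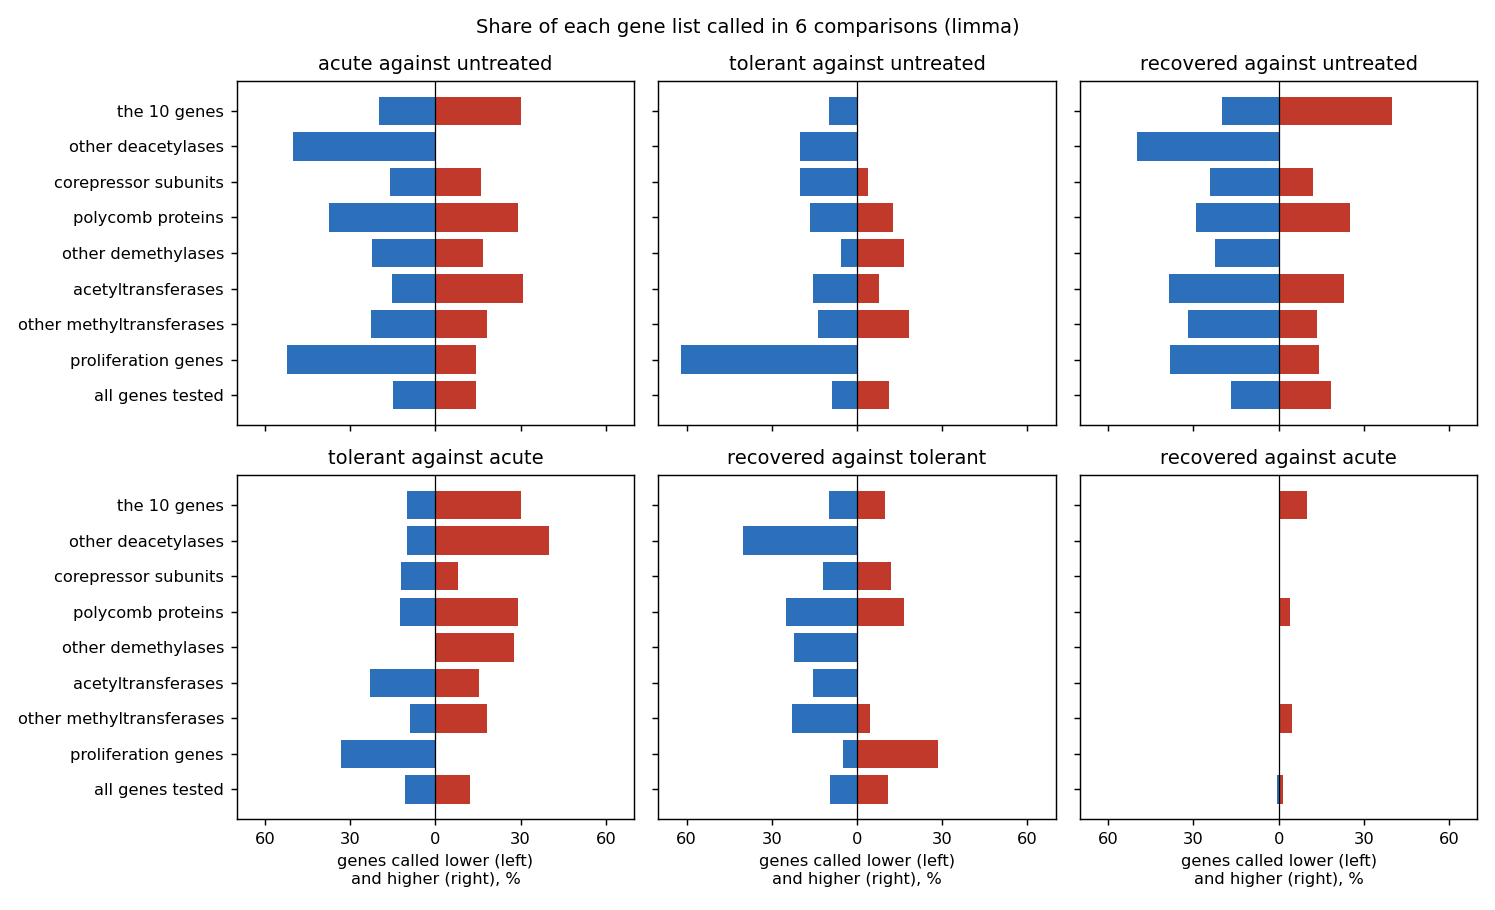
Share of each gene list called lower (left) and higher (right) by limma in the 6 comparisons, in percent of the genes tested, with the share over all genes at the bottom of each panel. In acute and recovered cells 5 of 10 other deacetylases were lower and 0 higher against untreated cells, and between recovered and acute cells no list had more than 1 called gene.

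The genes whose values over the 12 arrays were most like those of Hdac5 by Pearson correlation were Arhgap45 (r = 0.993), Kmt5c (r = 0.989) and Zkscan5 (r = 0.989). Sirt1 was most like Pcna (r = 0.989), Kbtbd2 (r = 0.986) and Irf2 (r = 0.986). Pcna is the sliding clamp of DNA replication. Hdac1 was most like Ppm1h (r = 0.988), Hdac4 like Ciao3 (r = 0.965), Hdac7 like Cd300a (r = 0.926), Kdm6a like Rrp1b (r = 0.962) and Kdm6b like Scamp2 (r = 0.960). Hdac3 was most like Rbm6 (r = 0.982), and Hdac2 and Ezh2 had their best matches at r = 0.800 (Get3) and r = 0.915 (Cnot6l). These are descriptions over 12 arrays that share group, slide and scaling, picked from all named genes.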

How the data were processed

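RNA of 12 cultures was labelled with Cy3 and read on single-colour Agilent arrays. The deposited scanner files hold spot intensity, per the file headers, after background subtraction and spatial detrending by the scanner software (Agilent Feature Extraction 10.7.3.1) and without scaling between arrays, and place probes on mm9. The authors' deposited value table holds log2 values. The submitters' processing notes name limma without a version, and how the table was normalized is not given in the sources used here. That table was used for 1 of the alternatives.

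From the log2 of the processed intensity, each array's 75th percentile was subtracted, and 1 constant (the percentiles' mean) was added to all values. Control spots and outlier spots were left out. A probe was kept (28056 were) if every array of some group had it well above background, and the brightest kept probe stood for a gene, which gave 20469 genes. All 12 arrays were fitted in 1 model with limma 3.58.1 in R 4.3.3 (files were read with data.table, version 1.17.8), with two-sided moderated tests for 6 comparisons. The code was tested on simulated data. Precision rests on 3 arrays per group, with a median within-group SD of 0.28. Plots used matplotlib 3.10.9 and pandas 2.3.3 under Python 3.11.15.

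The 10 genes and the gene lists were chosen with earlier results of these data known. Named genes were the 10 genes, the called gene with the largest rise and fall of each of 7 lists per comparison, and the 3 genes most like each of the 10 (1 gene under this rule is not reported here). Sirt4, Sirt7, Zbtb46 and the marker genes above background on no array were named after their values were seen.

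Replicate numbers come from the labels. Deviations from the group means correlated over genes at r = 0.275 to 0.773 (median 0.449) in the 18 same-numbered pairs. In the 36 different-numbered pairs r was -0.653 to 0.337 (median -0.368). By this check the numbers pair the arrays, although the ranges overlap, and most same-numbered pairs share slide and scan day. Blocked values stand beside results of the 10 genes whose call they change. For the gene lists only some counts are also given with the block, and others moved with it as well. Alternatives were normexp background (offset 50), quantile normalization, the authors' table, no filter on dim probes, the mean of all probes, replicate number or slide as a block, leaving out the second scan day, an intensity trend in the variance prior, and leaving out each array.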

Additional observations from a re-analysis of the deposited data

How the results depend on the processing

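Over 21 alternative settings, no called difference of the 10 genes reversed. Of 1260 refitted values (60 differences) 1207 kept their side of the threshold, 21 fell short of it and 32 newly passed it. Of the 19 calls, 12 held in all 21 settings, and the 7 others are given with their exceptions in the results. All 19 held with the replicate block and with slide as a block. The number of the 10 genes called changed for tolerant against untreated cells from 1 to 2 in the authors' table, 4 with the replicate block and 4 with slide as a block. For recovered against tolerant cells it went from 2 to 4 in the authors' table, 4 with the replicate block and 5 with slide as a block, and for recovered against acute cells from 1 to 0 without a filter on dim probes. Leaving out 1 array gave 4 to 6 called genes for acute, 1 to 2 for tolerant and 5 to 6 for recovered against untreated cells, 3 to 4 for tolerant against acute, 1 to 2 for recovered against tolerant and 0 to 1 for recovered against acute cells. Among all genes tested, the counts called against untreated cells (5998 in acute, 4073 in tolerant and 7246 in recovered cells) were 9313, 7087 and 11141 in the authors' table and 8897, 7679 and 10770 with the replicate block. Those of tolerant against acute, recovered against tolerant and recovered against acute cells (4641, 4213 and 418) were 7676, 7409 and 1203 in the authors' table and 9107, 9233 and 2199 with the replicate block, and the last was 99 without a filter on dim probes. Slide as a block gave 9304, 8073, 10161, 9612, 8236 and 1600 in the same order. Of the calls in recovered against untreated cells 52.2% were higher; the share was 42.2% with quantile normalization and 38.9% in the authors' values. Counts of the 7 gene lists moved by over 1.5 times in 17 of 42 comparisons in the authors' table and in 25 of 42 with the replicate block. The median difference of all genes passed 0.1 in size only without a filter on dim probes (0.28 for recovered against untreated cells) or with normexp background and without tolerant replicate 2 (0.12 and 0.10 for recovered against tolerant cells). Most called genes of the 10 rest on 3 arrays per group with 1 probe each. The median standard error over all genes was 0.23 for acute against untreated cells. Differences well above that could stay uncalled, such as that of Hdac7 in tolerant against untreated cells (0.90, adjusted p = 0.133 by limma).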
